A study of Mus musculus with 24 samples.

Results

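Canonical YAP target genes are genes whose transcription rises when the co-activator YAP enters the nucleus. The 9 examined here, *Ankrd1*, *Ctgf* (now named *Ccn2*), *Cyr61* (now named *Ccn1*), *Amotl1*, *Amotl2*, *Axl*, *Dab2*, *Marcks* and *Fscn1*, were chosen by name. All 9 are listed in both tables of the series, among 15667 genes in uninjected hearts and 15327 in injected hearts. The series holds 24 RNA-seq libraries from ventricular tissue (labelled heart apex) of mice at postnatal day 7.5, 4 in each of 6 groups. Uninjected *Xinβ* KO hearts were compared with uninjected WT hearts of control littermates. KO and WT pups of the other 4 groups received, on postnatal day 1, a subcutaneous injection of AAV9 carrying either GFP or Flag-tagged human YAP S127A. These groups are called WT/GFP, KO/GFP, WT/YAP and KO/YAP. In all KO groups the deletion is germline, with a LacZ-Neor cassette in place of part of *Xirp2*, the gene for Xinβ, on a C57BL6 background. The vectors were driven by the chicken cardiac troponin T promoter, so that the transgene is directed to cardiomyocytes while RNA was taken from all cells of the tissue. The study's reporting summary describes independent biological replicates for RNA sequencing where possible. Each library has its own code, though the labels do not name an animal for each. P-values weigh differences between groups against the spread between libraries.

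In the Hippo pathway, the kinases MST activate the kinases LATS, and LATS phosphorylate YAP, which then stays in the cytoplasm and is degraded. S127A changes a serine that is a main site of this phosphorylation into alanine, which leaves YAP active. In the nucleus YAP binds TEAD factors at enhancers and promoters. In the heart, YAP is known for driving proliferation of fetal and neonatal cardiomyocytes. Among its targets, *Ctgf* and *Cyr61* encode secreted matricellular proteins, and *Amotl1* and *Amotl2* encode angiomotin family proteins that bind YAP and hold it at junctions. *Axl* encodes a receptor tyrosine kinase and *Dab2* an endocytic adaptor. *Marcks* encodes an actin- and membrane-binding protein, *Fscn1* an actin-bundling protein, and *Ankrd1* a nuclear and sarcomeric protein of cardiomyocytes. On GRCm38 (GENCODE M21) their genes lie at chr10:24595442-24598683 (*Ctgf*, ENSMUSG00000019997), chr3:145646976-145649981 (*Cyr61*, ENSMUSG00000028195), chr9:14541966-14645056 (*Amotl1*, ENSMUSG00000013076) and chr9:102716672-102733418 (*Amotl2*, ENSMUSG00000032531), then at chr7:25757273-25788705 (*Axl*, ENSMUSG00000002602), chr15:6299788-6440712 (*Dab2*, ENSMUSG00000022150), chr10:37133375-37138920 (*Marcks*, ENSMUSG00000069662), chr5:142960343-142973185 (*Fscn1*, ENSMUSG00000029581) and chr19:36111961-36120099 (*Ankrd1*, ENSMUSG00000024803).

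TEAD factors recognise the core GGAATG, read as CATTCC on the other strand, so the windows around the transcription starts were searched for it on both strands. RefSeq windows of 300 bases on GRCm38.p6, from 250 bases before to 50 bases after a start, were matched for 7 of the 9 genes, with 2 windows for *Dab2*. At least 1 copy of the core stood in the windows of 5 of these 7 genes, *Ankrd1*, *Cyr61*, *Amotl2*, *Axl* and *Dab2*. The windows of *Amotl1* and *Fscn1* did not hold these letters. Over the whole reference, 14.7% of 32851 windows of the same length held the core, and 16.6% of 27025 genes had it in at least 1 window. The 5 windows with the core are shown because they let the position of the motif be compared between the genes. They are written 5′ to 3′ on the strand of the gene, with the core in capitals:
Ankrd1, chr19:36119795-36120094, minus strand: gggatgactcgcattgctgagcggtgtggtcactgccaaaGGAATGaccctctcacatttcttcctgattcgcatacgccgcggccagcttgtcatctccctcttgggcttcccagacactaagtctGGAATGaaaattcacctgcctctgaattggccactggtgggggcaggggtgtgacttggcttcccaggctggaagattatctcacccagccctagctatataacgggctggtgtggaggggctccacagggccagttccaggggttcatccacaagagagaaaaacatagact
Cyr61, chr3:145649936-145650235, minus strand: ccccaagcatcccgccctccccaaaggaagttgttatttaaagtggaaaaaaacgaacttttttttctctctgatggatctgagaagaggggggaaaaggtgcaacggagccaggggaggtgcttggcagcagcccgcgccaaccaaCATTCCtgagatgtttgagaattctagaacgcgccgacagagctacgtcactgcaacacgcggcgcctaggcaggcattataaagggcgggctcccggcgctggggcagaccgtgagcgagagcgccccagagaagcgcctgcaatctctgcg
Amotl2, chr9:102717554-102717853, plus strand: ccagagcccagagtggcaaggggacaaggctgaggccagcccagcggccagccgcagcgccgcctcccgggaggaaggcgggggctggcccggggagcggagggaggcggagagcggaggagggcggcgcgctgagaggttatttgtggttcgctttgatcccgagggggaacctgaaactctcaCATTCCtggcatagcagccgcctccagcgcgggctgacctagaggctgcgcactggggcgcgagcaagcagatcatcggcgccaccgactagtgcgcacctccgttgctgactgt
Axl, chr7:25788684-25788983, minus strand: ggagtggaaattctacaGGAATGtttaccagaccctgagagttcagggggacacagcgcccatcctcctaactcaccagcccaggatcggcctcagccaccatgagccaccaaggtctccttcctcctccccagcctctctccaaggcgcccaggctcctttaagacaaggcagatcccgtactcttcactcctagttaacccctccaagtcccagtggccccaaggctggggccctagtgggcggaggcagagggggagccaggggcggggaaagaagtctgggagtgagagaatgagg
Dab2, chr15:6386498-6386797, plus strand: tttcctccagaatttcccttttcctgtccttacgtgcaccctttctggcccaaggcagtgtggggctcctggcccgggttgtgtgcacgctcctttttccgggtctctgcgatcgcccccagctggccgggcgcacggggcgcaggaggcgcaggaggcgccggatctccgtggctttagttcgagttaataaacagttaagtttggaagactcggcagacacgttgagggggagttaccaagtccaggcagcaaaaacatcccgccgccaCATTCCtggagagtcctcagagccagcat
The core began 210 and 123 bases before the start in *Ankrd1*, 103 bases before it in *Cyr61*, 65 bases before it in *Amotl2* and 233 bases before it in *Axl*. In *Dab2* it began at base 22 of the transcript, counted from 1 at the start, near the 3′ end of the window shown. A match is a match of letters only, and binding was not measured in these data.

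Depth, as reads counted on genes, ran from 20490875 to 31154155 a library in uninjected hearts and from 15015038 to 19444404 in injected hearts. *Xirp2*, the deleted gene, was at 56.0 CPM or more in all 12 WT libraries and at 0.972 CPM or less in all 12 KO libraries, as labelled. CPM here is the deposited read count of a gene scaled to the adjusted size of its library. *Yap1*, the mouse gene, was between 80.9 and 93.6 CPM in the 16 injected libraries, and its log2 fold change between KO/YAP and KO/GFP was -0.03 by limma, with a Benjamini-Hochberg adjusted p of 0.81. In uninjected KO hearts *Yap1* was at 47.9, 99.0, 50.1 and 49.7 CPM in replicates 1 to 4, against 100.3, 102.6, 93.8 and 90.7 CPM in WT replicates, a difference of -0.71 on the log2 scale with an adjusted p of 0.086. The Y-linked gene *Ddx3y* was at 3.68 CPM in uninjected KO replicate 4 and between 21.7 and 56.2 CPM in the other 7 uninjected libraries. In injected hearts it was under 1 CPM in WT/GFP replicate 4, KO/GFP replicate 2 and KO/YAP replicates 3 and 4, at 8.61 CPM in WT/YAP replicate 3, and at 49.7 CPM or more in the rest. The study's methods describe each RNA-seq group as holding both sexes equally, whereas no uninjected WT library was low in *Ddx3y*, at 39.5 to 49.6 CPM. In uninjected hearts the covariate therefore varied mostly among KO libraries. Calls that changed without these libraries or with *Ddx3y* as a covariate are given below. Summed cardiomyocyte markers ranged from 49339 to 81946 CPM, as the tissue label implies, and fibroblast markers from 2156 to 6002 CPM.

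Per kilobase of exonic sequence, *Ankrd1* was the highest of the 9 genes in every group, with means of 147 and 355 CPM per kb in uninjected KO and WT hearts and from 193 to 295 CPM per kb in injected hearts. *Dab2* was the lowest in every group, with means of 3.39 and 4.94 CPM per kb in uninjected KO and WT hearts and from 2.61 to 4.93 CPM per kb in injected hearts. The other 7 genes lay between 9.0 and 47.6 CPM per kb, and their order changed between groups. *Ctgf*, for example, was the second highest in KO/GFP at 40.8 CPM per kb and the fourth in WT/GFP at 22.6 CPM per kb. *Marcks* stood in the second place in WT/GFP, at 43.9 CPM per kb, and in the fourth in KO/GFP, at 27.0 CPM per kb. Uninjected and injected hearts were not tested against each other, because the 2 tables were sequenced and scaled separately.

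**Figure D1:**
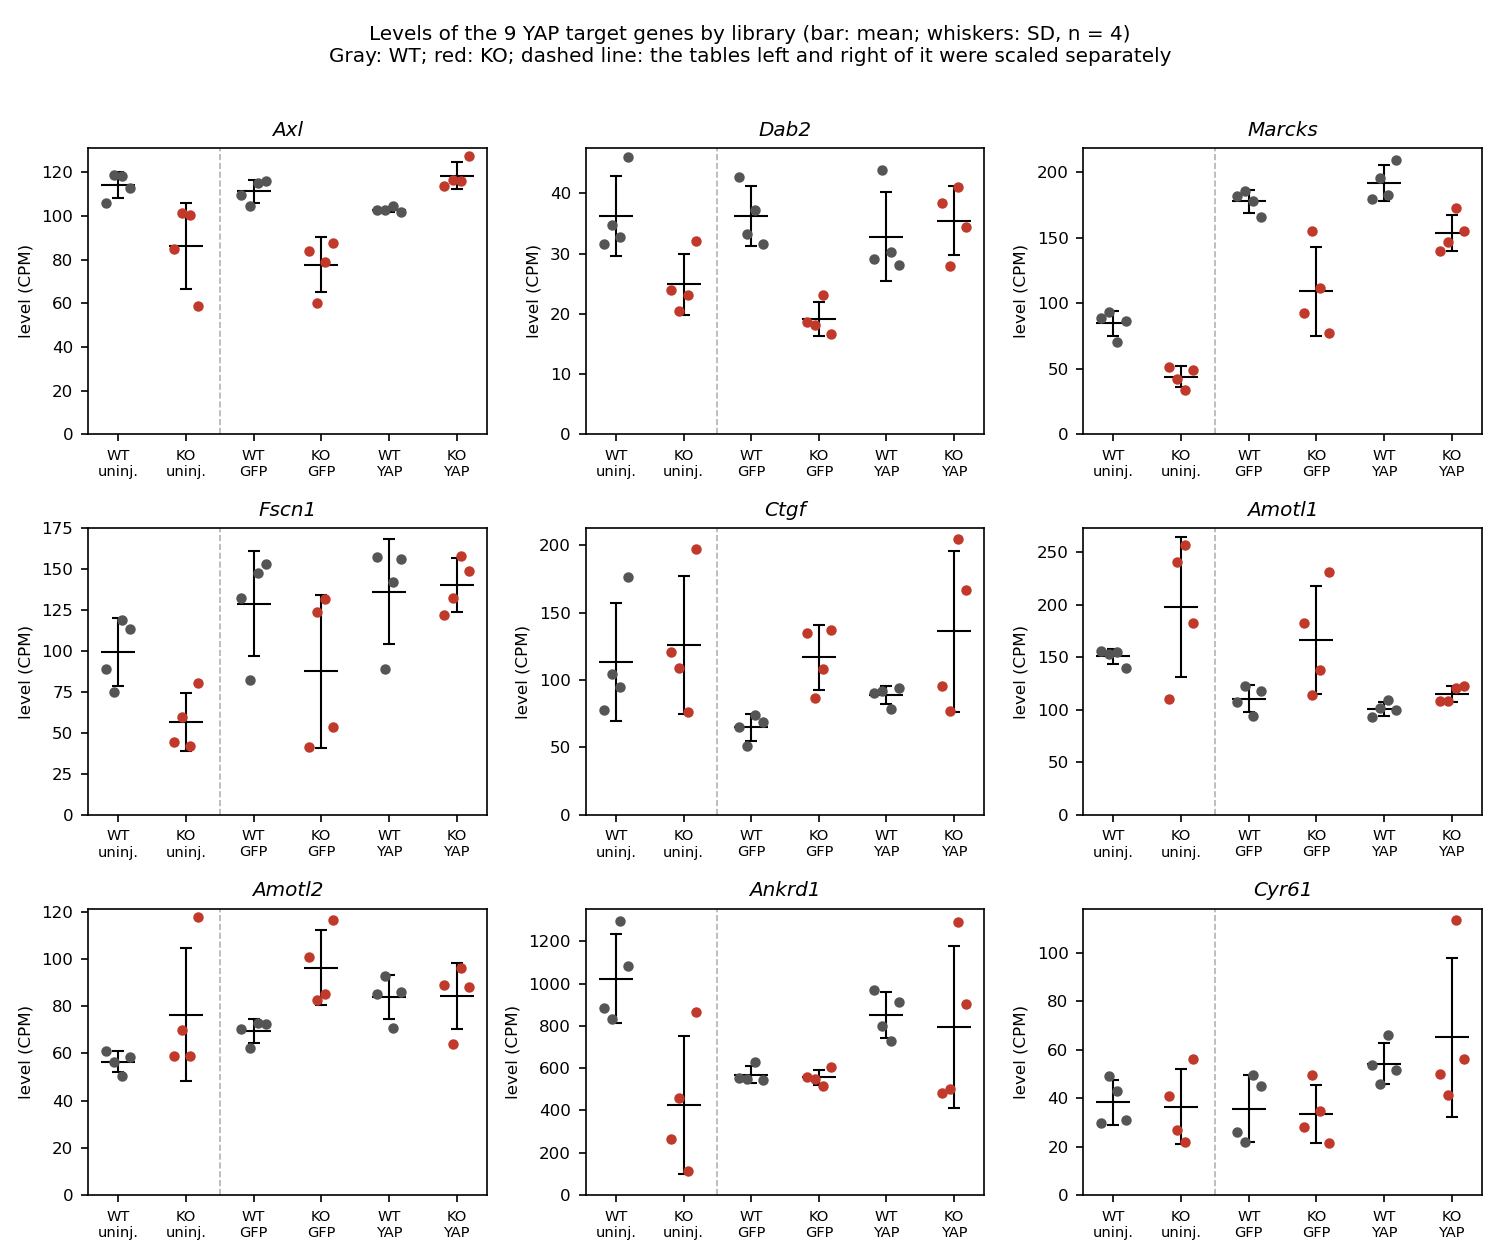
Level of each of the 9 genes in CPM (y axis) in every library, by genotype and vector (x axis, 4 points a group), with the group mean and SD. *Axl* and *Dab2* sit low in KO/GFP, at 60.0 to 87.9 and 16.7 to 23.2 CPM, while *Ankrd1*, *Ctgf* and *Cyr61* spread widely in KO/YAP.

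Uninjected KO and WT hearts were compared to ask whether YAP targets are altered by loss of Xinβ. *Marcks* was lower in KO hearts, and none of the other 8 genes passed the test. *Marcks* was at 51.6, 41.9, 34.2 and 48.9 CPM in the KO libraries, and the WT libraries held 88.9, 93.0, 70.6 and 86.2 CPM, in replicate order. The groups did not overlap. Its level in KO hearts was 0.524 times that in WT hearts (log2 fold change -0.93, standard error 0.15, adjusted p = 0.0084, limma over 15598 genes). The 1 of 9 genes called, and called lower, stands beside 6.69% of all genes called in either direction and 3.46% called lower. The study had measured *Ankrd1*, *Axl*, *Dab2*, *Fscn1* and *Marcks* by qRT-PCR in such hearts, so these genes are not independent evidence of a direction here.

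The other actin-related gene, *Fscn1*, was at 44.4, 59.9, 42.0 and 80.4 CPM in KO hearts and at 89.3, 75.1, 119.3 and 113.8 CPM in WT libraries. Only KO replicate 4 reached into the WT range, and the log2 fold change was -0.82 (95% interval -1.33 to -0.31, adjusted p = 0.062, limma). Intervals here and below are those of the limma fit, not adjusted for the number of genes. *Dab2* showed the same overlap of 1 library, with 23.9, 20.4, 23.1 and 32.1 CPM in KO hearts and 31.6, 34.7, 32.8 and 46.0 CPM in WT libraries (log2 fold change -0.53, 95% interval -0.91 to -0.16, adjusted p = 0.092, limma). *Axl* was at 84.8, 101.2, 100.5 and 58.9 CPM in KO hearts and at 106.2, 118.8, 118.4 and 113.0 CPM in WT libraries. These groups did not overlap, so that *Axl* and *Marcks* were the 2 of 9 genes lower without overlap, beside 8.43% of all genes. The *Axl* difference did not pass the test (log2 fold change -0.43, 95% interval -0.80 to -0.05, adjusted p = 0.17, limma).

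*Ankrd1* varied most. In KO hearts it was at 264.4, 457.2, 112.1 and 864.5 CPM, an SD of 76.7% of the mean, and in WT hearts at 884.0, 834.4, 1294.3 and 1083.1 CPM. Its log2 fold change of -1.61 was the largest of the 9 in size, with a 95% interval from -2.79 to -0.43 (adjusted p = 0.10, limma). *Amotl1* and *Amotl2*, the angiomotin family genes, had positive log2 fold changes of 0.31 (95% interval -0.22 to 0.85) and 0.37 (95% interval -0.11 to 0.84). In KO hearts *Amotl1* ranged from 109.9 to 256.7 CPM, around a WT range of 140.1 to 155.5 CPM. The matricellular genes *Ctgf* and *Cyr61* had log2 fold changes of 0.14 (95% interval -0.57 to 0.84) and -0.13 (95% interval -0.78 to 0.52). The median log2 fold change of the 9 genes was -0.43, against 0.001 over all tested genes.

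KO replicate 4, the library low in *Ddx3y*, had the highest *Ankrd1*, *Amotl2*, *Ctgf*, *Cyr61*, *Dab2* and *Fscn1* and the lowest *Axl* of the KO hearts. Without it, 4 of the 9 genes were called lower, *Ankrd1* (log2 fold change -2.08, adjusted p = 0.015), *Fscn1* (-1.01, adjusted p = 0.013), *Dab2* (-0.66, adjusted p = 0.023) and *Marcks*. The share of all genes called in that fit was 13.1%, against 6.69% with all libraries. With the log2 level of *Ddx3y* as a covariate the same 4 genes were called, beside 12.4% of all genes. Without KO replicate 1, *Amotl1* was called higher (log2 fold change 0.57, adjusted p = 0.024) beside *Marcks*, in a fit that called 10.9% of all genes.

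The KO/GFP and WT/GFP hearts repeat the genotype comparison under a control vector. The 9 genes divided by direction. *Axl*, *Dab2* and *Marcks* were lower and *Ctgf*, *Amotl1* and *Amotl2* higher in KO/GFP, while *Fscn1*, *Ankrd1* and *Cyr61* did not pass the test. The 6 of 9 genes called stand beside 13.7% of all 14597 genes tested, with 3 higher beside 6.43% and 3 lower beside 7.22%. Without overlap between the groups, 2 of the 9 were higher, as were 7.32% of all genes, and 3 were lower, as were 7.95%. The directions nearly cancelled in the median of the 9 genes, at -0.08 against -0.01 over all tested genes.

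Of the 3 lower genes, *Dab2* had the largest difference. It was at 18.7, 18.2, 23.2 and 16.7 CPM in KO/GFP and at 42.7, 33.3, 37.2 and 31.6 CPM in WT/GFP, or 0.543 times the WT/GFP level (log2 fold change -0.88, standard error 0.15, adjusted p = 0.0017, limma). The groups lay well apart, with every KO/GFP library under every WT/GFP library. *Axl* was at 84.2, 60.0, 79.1 and 87.9 CPM in KO/GFP and at 109.8, 104.7, 115.3 and 115.9 CPM in WT/GFP (log2 fold change -0.53, standard error 0.10, adjusted p = 0.0023, limma). *Marcks* was at 92.4, 155.0, 112.0 and 77.1 CPM in KO/GFP and at 181.8, 185.8, 177.8 and 165.8 CPM in WT/GFP (log2 fold change -0.75, standard error 0.15, adjusted p = 0.0037, limma). Neither *Axl* nor *Marcks* overlapped between the groups, although KO/GFP replicate 2 came close for *Marcks*. These 3 calls held with each of the 8 libraries left out in turn.

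*Fscn1* fell into high and low libraries within KO/GFP, at 41.7 and 53.6 CPM in replicates 1 and 4 and at 124.2 and 131.8 CPM in replicates 2 and 3. In WT/GFP it was at 132.6, 82.4, 147.7 and 153.4 CPM (log2 fold change -0.68, 95% interval -1.34 to -0.02, adjusted p = 0.17, limma). The same replicates 1 and 4 of KO/GFP were the lowest of that group for *Marcks* and the highest for *Amotl1* and *Amotl2*. The SD of *Fscn1* was 53.2% of the mean in KO/GFP and 25.0% in WT/GFP.

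Of the 3 higher genes, *Ctgf* had the largest difference. It was at 135.0, 86.3, 108.3 and 137.4 CPM in KO/GFP and at 65.0, 51.3, 74.2 and 68.7 CPM in WT/GFP, or 1.78 times the WT/GFP level (log2 fold change 0.83, standard error 0.24, adjusted p = 0.030, limma). *Amotl2* was at 100.9, 82.6, 85.4 and 116.8 CPM in KO/GFP and at 70.5, 62.3, 73.1 and 72.7 CPM in WT/GFP (log2 fold change 0.45, standard error 0.13, adjusted p = 0.031, limma). Neither gene overlapped between the groups. *Amotl1* was at 182.4, 114.0, 137.4 and 231.0 CPM in KO/GFP and at 106.9, 122.9, 94.3 and 118.0 CPM in WT/GFP, with 1 KO/GFP library inside the WT/GFP range (log2 fold change 0.54, standard error 0.16, adjusted p = 0.033, limma). With 1 library left out, each of the 3 higher genes was called in 3 of 8 fits, with log2 fold changes from 0.72 to 0.96 for *Ctgf*, 0.36 to 0.52 for *Amotl2* and 0.36 to 0.70 for *Amotl1* and adjusted p-values up to 0.11. Without WT/GFP replicate 1, WT/GFP replicate 4, KO/GFP replicate 1 or KO/GFP replicate 4, none of the 3 was called and only *Axl*, *Dab2* and *Marcks* remained. In that order, these fits called 10%, 10.7%, 8.66% and 8.66% of all genes, against 13.7% with all libraries. When KO/GFP and WT/GFP alone were fitted, *Amotl1* (adjusted p = 0.14) and *Amotl2* (adjusted p = 0.057) were not called. That fit called 6.37% of all genes.

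*Ankrd1* was at 558.0, 549.6, 515.0 and 603.7 CPM in KO/GFP and at 554.8, 547.6, 630.3 and 546.3 CPM in WT/GFP, a log2 fold change of -0.03 with a 95% interval from -0.51 to 0.45. The wide spread of *Ankrd1* in uninjected KO hearts was not seen in KO/GFP, where its SD was 6.56% of the mean. *Cyr61* ranged from 21.4 to 49.4 CPM in KO/GFP and from 21.9 to 49.7 CPM in WT/GFP (log2 fold change -0.08, 95% interval -0.73 to 0.58).

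**Figure D2:**
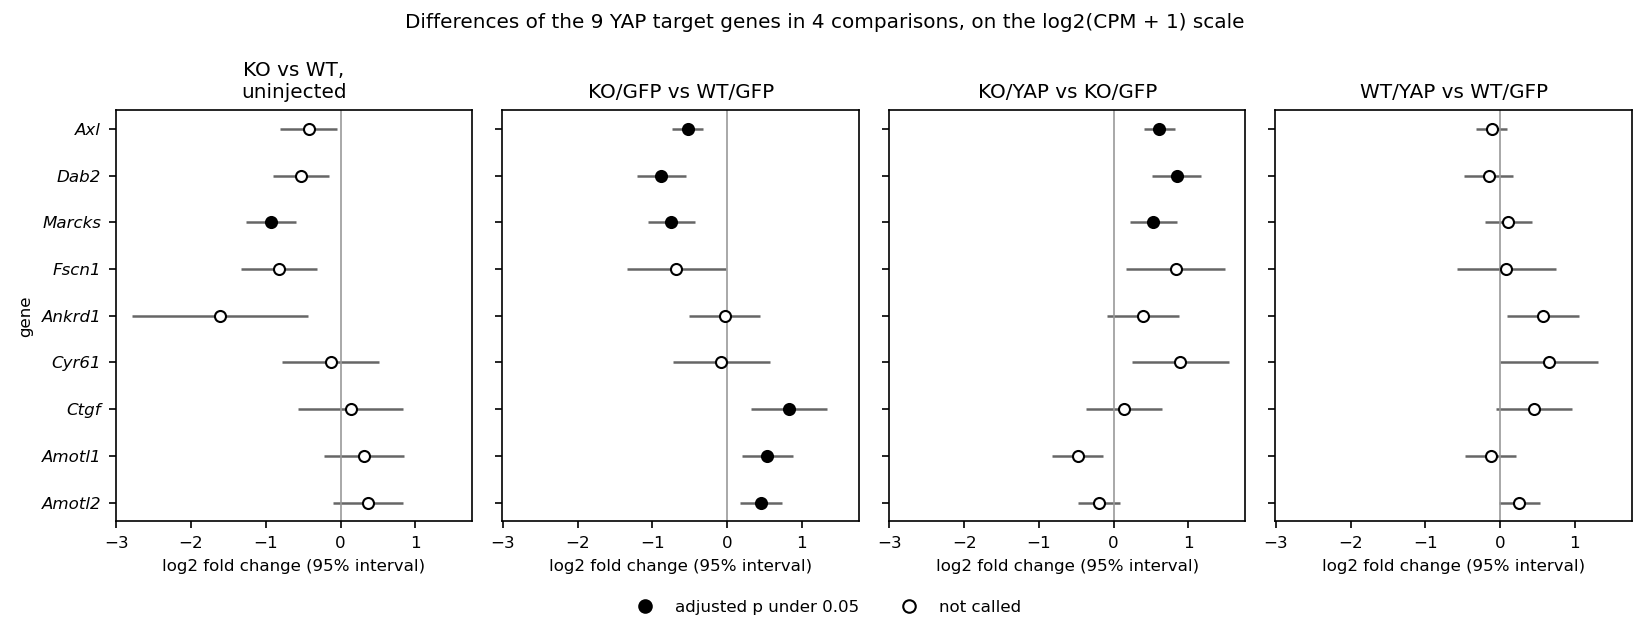
Log2 fold change of each of the 9 genes (y axis) with its unadjusted 95% interval (x axis, log2(CPM + 1) scale) in 4 comparisons, filled where the adjusted p-value was under 0.05. *Axl*, *Dab2* and *Marcks* lie at -0.53, -0.88 and -0.75 in KO/GFP against WT/GFP and at 0.61, 0.85 and 0.53 in KO/YAP against KO/GFP.

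The effect of the YAP vector on KO hearts was measured as KO/YAP against KO/GFP. This comparison shares the KO/GFP libraries with the comparison above, so that a low level in KO/GFP enters both. *Axl*, *Dab2* and *Marcks* were higher in KO/YAP and no gene of the 9 was called lower. The 3 of 9 genes called stand beside 14.8% of all tested genes called, 7.85% higher and 6.92% lower. Of the 9, 2 were higher without overlap, beside 9.02% of all genes. *Axl* was at 113.8, 116.5, 115.9 and 127.7 CPM in KO/YAP, above all KO/GFP libraries (log2 fold change 0.61, standard error 0.10, adjusted p = 7.3e-04, limma). *Dab2* was at 38.4, 27.9, 41.1 and 34.4 CPM in KO/YAP, also without overlap, and 1.80 times the KO/GFP level (log2 fold change 0.85, standard error 0.15, adjusted p = 0.0019, limma). Both calls held with each library left out in turn.

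*Marcks* was at 139.9, 146.9, 172.5 and 155.2 CPM in KO/YAP, and KO/GFP replicate 2 lay among these values (log2 fold change 0.53, standard error 0.15, adjusted p = 0.025, limma). Its call was lost when KO/GFP replicate 1, KO/GFP replicate 4, KO/YAP replicate 3 or KO/YAP replicate 4 was left out, with adjusted p-values up to 0.078, and when KO/YAP and KO/GFP alone were fitted (adjusted p = 0.11). The fits without a library called 10.2%, 11.1%, 11.6% and 12% of all genes, in that order. The fit of KO/YAP and KO/GFP alone called 8.28%, against 14.8% in the main fit. *Fscn1* was at 121.8, 132.4, 158.3 and 149.2 CPM in KO/YAP, a narrow range beside the 41.7 to 131.8 CPM of KO/GFP (log2 fold change 0.83, 95% interval 0.17 to 1.5, adjusted p = 0.084, limma).

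*Cyr61* was at 49.8, 41.2, 113.5 and 56.1 CPM in KO/YAP, with replicate 3 far above the others (log2 fold change 0.89, 95% interval 0.24 to 1.55, adjusted p = 0.062, limma). With the *Ddx3y* covariate *Cyr61* was called higher (log2 fold change 0.75, adjusted p = 0.048). *Ankrd1* and *Ctgf* divided the KO/YAP libraries in the same way. *Ankrd1* was at 483.9 and 502.0 CPM in replicates 1 and 2 and at 1290.8 and 905.3 CPM in replicates 3 and 4. *Ctgf* was at 95.8 and 76.8 CPM in replicates 1 and 2 and at 204.9 and 166.7 CPM in replicates 3 and 4. Replicates 3 and 4 were the KO/YAP libraries low in *Ddx3y*, and the part of this in the spread was not tested. The log2 fold changes against KO/GFP were 0.39 for *Ankrd1* (95% interval -0.09 to 0.87) and 0.13 for *Ctgf* (95% interval -0.37 to 0.64).

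*Amotl1* was at 108.4, 107.8, 120.2 and 122.8 CPM in KO/YAP and thus near its WT/GFP range (log2 fold change against KO/GFP -0.48, 95% interval -0.82 to -0.14, adjusted p = 0.054, limma). It was called lower by edgeR's quasi-likelihood test on the recovered reads, with an adjusted p of 0.035, and by DESeq2, with an adjusted p of 0.017. *Amotl2* was at 89.1, 64.1, 96.2 and 88.3 CPM (log2 fold change -0.19, 95% interval -0.47 to 0.09). KO/GFP replicates 2 and 3, the libraries of that group with high *Fscn1*, decided whether some of these genes were called. Without replicate 2, *Amotl1* was called lower (adjusted p = 0.0049) and *Cyr61* (adjusted p = 0.025) and *Fscn1* (adjusted p = 0.030) higher. Without replicate 3, *Amotl1* (adjusted p = 0.038) and *Fscn1* (adjusted p = 0.025) were called in the same directions. These fits called 17.1% and 16.3% of all genes. Over the 9 genes the median log2 fold change was 0.53, against 0.01 over all tested genes.

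In WT hearts the vector gave no call. In WT/YAP against WT/GFP, 0 of 9 genes and 0% of all tested genes were called, by limma and by edgeR. At an unadjusted p under 0.05, 6.93% of all tested genes passed, and DESeq2 called 11 genes, none of them among the 9. *Ankrd1* was at 969.1, 798.6, 728.1 and 913.0 CPM in WT/YAP, above all WT/GFP libraries (log2 fold change 0.57, 95% interval 0.09 to 1.05, unadjusted p = 0.022, adjusted p = 0.70, limma). *Ctgf*, at 90.1, 91.7, 78.8 and 93.8 CPM, also lay above all WT/GFP libraries (log2 fold change 0.46, 95% interval -0.05 to 0.96, adjusted p = 0.77, limma). Among all tested genes, 2.12% were higher without overlap in WT/YAP. *Cyr61* was at 53.8, 45.6, 65.9 and 51.5 CPM in WT/YAP (log2 fold change 0.66, 95% interval 0.00 to 1.31, adjusted p = 0.72, limma). *Axl*, *Dab2* and *Marcks* had log2 fold changes of -0.11, -0.15 and 0.11 in WT hearts, with intervals that reach no further than -0.48 and 0.43.

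Whether the vector's effect differed between genotypes was tested as an interaction. This test also uses the KO/GFP libraries, so that a low level in KO/GFP enters it too. The vector's effect differed for *Axl* (interaction 0.73 on the log2 scale, standard error 0.14, adjusted p = 0.0058, limma) and *Dab2* (interaction 1.00, standard error 0.22, adjusted p = 0.013, limma). The 2 of 9 genes called, both positive, stand beside 7.56% of all tested genes in either direction and 3.8% positive. Both held with each of the 16 libraries left out in turn. For *Marcks* the interaction was 0.42 (95% interval -0.02 to 0.87, adjusted p = 0.24, limma), so a different effect of the vector in KO and WT hearts was not shown for it. Without KO/GFP replicate 2 the interaction of *Marcks* was 0.61 and was called (adjusted p = 0.019), in a fit that called 10.1% of all genes. For *Ankrd1*, *Ctgf* and *Cyr61* it was -0.18, -0.32 and 0.24, each with an interval across 0.

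None of the 9 genes was called between KO/YAP and WT/GFP by limma or edgeR, and 0.0206% of all tested genes were. At an unadjusted p under 0.05, 6.08% of all tested genes passed. For *Axl* the difference was 0.09 (95% interval -0.12 to 0.29), for *Dab2* -0.04 (95% interval -0.36 to 0.29) and for *Marcks* -0.21 (95% interval -0.53 to 0.10), all on the log2 scale. *Ctgf* was above all WT/GFP libraries in KO/YAP, as were 2.13% of all tested genes (log2 fold change 0.96, 95% interval 0.45 to 1.47, unadjusted p = 9.7e-04, adjusted p = 0.66, limma) and was called by DESeq2 with an adjusted p of 0.017. Between KO/YAP and WT/YAP, none of the 9 was called by limma, edgeR or DESeq2, beside 0.0411% of all tested genes by limma and 11.1% at an unadjusted p under 0.05. *Axl* lay above all WT/YAP libraries in KO/YAP (log2 fold change 0.20, 95% interval -0.01 to 0.41), as did 4.51% of all genes. *Marcks* lay below them (log2 fold change -0.32, 95% interval -0.64 to -0.00), as did 4.72%. *Axl* levels in WT/YAP were close together, at 102.6, 102.7, 104.7 and 101.7 CPM.

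Most fibroblast and macrophage markers moved with *Axl*, *Dab2* and *Marcks*. Counts of called markers stand beside 7.22% of all genes called lower in KO/GFP than in WT/GFP and 7.85% called higher in KO/YAP than in KO/GFP. In the opposite directions, 6.43% were called higher in KO/GFP and 6.92% lower in KO/YAP. In uninjected KO hearts 3.46% were called lower and 6.69% in either direction. In bulk tissue, fewer cells of a type and less RNA per cell cannot be told apart. Summed over the 8 fibroblast markers, levels were 4615 to 5447 CPM in WT/GFP, 2156 to 3580 CPM in KO/GFP and 4990 to 6002 CPM in KO/YAP. Of these markers 6 were called lower in KO/GFP than in WT/GFP and 6 higher in KO/YAP than in KO/GFP, with *Lum* (log2 fold change -0.80, then 1.08), *Col3a1* (-0.99, then 1.18) and *Col1a2* (-0.73, then 0.87) among them. These 3 encode proteins of the extracellular matrix. The 2 markers not called were *Pdgfra* (-0.03, adjusted p = 0.95, then 0.24) and *Tcf21* (-0.05, adjusted p = 0.89, then 0.24), a receptor and a transcription factor of fibroblasts. Macrophage markers summed to 69.2 to 101.6 CPM in WT/GFP, 24.9 to 62.5 CPM in KO/GFP and 73.0 to 87.2 CPM in KO/YAP, and 4 of 5 tested were called in each of these comparisons. Endothelial markers summed to 1350 to 1503 CPM, 1175 to 1230 CPM and 1371 to 1411 CPM in the same order, with 3 of 6 called lower in KO/GFP, and 2 higher and 1 lower in KO/YAP than in KO/GFP. The endothelial marker called lower in KO/YAP was *Emcn* (log2 fold change -0.45, adjusted p = 0.036), at 0.34 in KO/GFP against WT/GFP. In uninjected hearts, fibroblast markers were at 2525 to 3869 CPM in KO and 5146 to 5380 CPM in WT, with 4 of 8 called lower. Macrophage markers were at 20.4 to 36.0 CPM in KO and 56.7 to 68.6 CPM in WT, with 4 of 5 called lower. Of 6 markers of cardiomyocytes, to which the vector is directed, 1 was called in each of these comparisons. It was *Tnnt2*, higher in KO/GFP than in WT/GFP (log2 fold change 0.65, adjusted p = 0.0013), lower in KO/YAP than in KO/GFP (-0.62, adjusted p = 0.0017) and higher in uninjected KO hearts (0.60, adjusted p = 0.045). Of 6 mural markers 1 was called lower in KO/GFP and 3 higher in KO/YAP, and of 4 cardiac stress genes 1 was called higher and then 2 lower. Of 4 erythroid markers 3 were called lower in KO/GFP than in WT/GFP and 0 in KO/YAP against KO/GFP by limma. No listed marker of fibroblasts, macrophages or endothelial cells was at 0 on average in any group. By the interaction test, 5 of 8 fibroblast, 3 of 5 macrophage, 2 of 6 mural and 1 of 6 endothelial markers were called positive. Of all genes 3.8% were called positive and 7.56% in either direction. A negative interaction was called for 1 cardiomyocyte marker and 1 cardiac stress gene. The part of these cell types in the levels of the 9 genes was not tested.

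**Figure D3:**
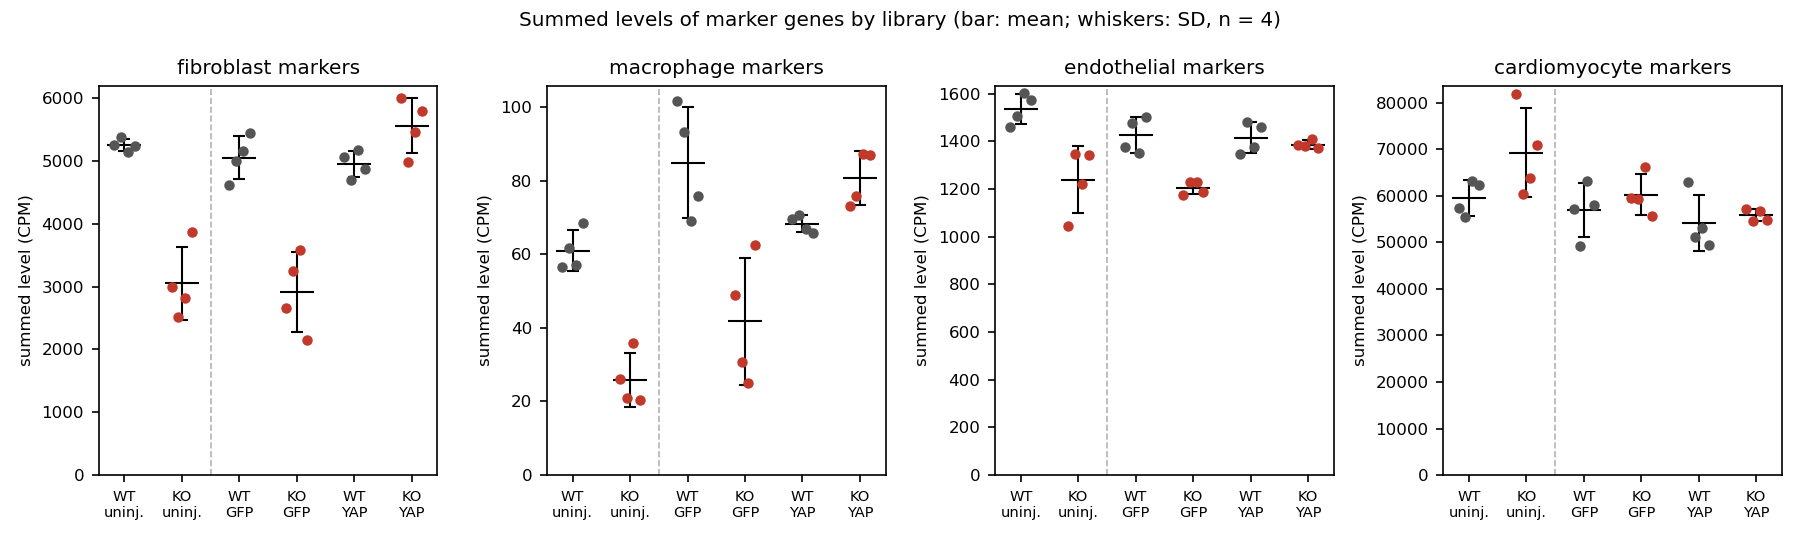
Summed CPM of fibroblast, macrophage, endothelial and cardiomyocyte marker genes (y axes) in every library by group (x axis, 4 points a group), with mean and SD. Fibroblast markers lie at 2156 to 3580 CPM in KO/GFP and at 4615 CPM or more in the other injected groups.

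The other genes of the pathway were read from lists written from general knowledge. Of 16 further YAP and TAZ targets tested, 2 were called higher and 1 lower in KO/GFP than in WT/GFP, beside 6.43% of all genes called higher and 7.22% lower. The higher genes were *Nt5e* (log2 fold change 1.09, adjusted p = 0.0032, limma), which encodes an ectonucleotidase, and *Igfbp3* (1.73, adjusted p = 0.0097), which encodes a binding protein of insulin-like growth factors. The lower gene was *Tgfb2* (-0.34, adjusted p = 0.038), a secreted growth factor. In KO/YAP against KO/GFP the directions were opposite, with *Nt5e* at -0.74 (adjusted p = 0.029), *Igfbp3* at -1.63 (adjusted p = 0.013) and *Tgfb2* at 0.65 (adjusted p = 8.0e-04). In uninjected KO hearts 1 of the 16, *Igfbp3*, was called, and it was higher (1.55, adjusted p = 0.012), where 6.69% of all genes were called. The vector's effect differed between genotypes for *Nt5e* (interaction -1.13, adjusted p = 0.035, limma) and *Igfbp3* (-1.95, adjusted p = 0.048).

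Of 11 cell cycle genes counted among YAP targets, 9 were called lower in KO/GFP than in WT/GFP, beside 7.22% of all genes, with a list median of -1.03 on the log2 scale. The smallest adjusted p-values were those of *Hmmr* (log2 fold change -1.68, adjusted p = 5.9e-04), *Cdc20* (-1.55, adjusted p = 0.0024) and *Birc5* (-1.21, adjusted p = 0.0033), all with mitotic roles. In KO/YAP 7 of the 11 were called higher than in KO/GFP, beside 7.85% of all genes, with a median of 0.84. In uninjected KO hearts all 11 had negative log2 fold changes, with a median of -1.20, and none was called by limma. The study had already reported a conserved YAP signature lower in uninjected KO hearts and KO/GFP and higher in KO/YAP than in KO/GFP. It had also measured some of these 11 genes by qRT-PCR in uninjected hearts. This list is therefore not independent evidence of a direction here.

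Of the 15 genes of the Hippo pathway and its nuclear partners, 1 was called in KO/GFP against WT/GFP and in KO/YAP against KO/GFP, where 13.7% and 14.8% of all genes were called. *Tead3*, which encodes a TEAD factor, was higher in KO/GFP than in WT/GFP (log2 fold change 1.03, adjusted p = 1.9e-04) and lower in KO/YAP than in KO/GFP (-0.75, adjusted p = 0.0018). Its interaction was -1.20 (adjusted p = 0.0019, limma). No gene of this list was called in uninjected hearts.

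After the mean of each of the 6 groups was subtracted, variation between the 24 libraries was compared among the 9 genes. The libraries come from 2 separately sequenced and scaled tables of different depth, and libraries of 1 table share a sequencing run. The highest of the 36 pairs were *Ankrd1* with *Ctgf* (Pearson's r = 0.73), *Ctgf* with *Amotl2* (0.70) and *Ankrd1* with *Amotl2* (0.68). Without the 2 libraries farthest from the group means of *Ankrd1*, its r with *Ctgf* was 0.64 and with *Amotl2* 0.40. *Marcks* ran opposite to *Amotl1* (-0.72) and to *Axl* (-0.66), although *Marcks* and *Axl* were both lower in KO/GFP as groups. Among 13734 genes tested in both tables, *Ankrd1* was closest to *Nppb* (0.92), the gene for the natriuretic peptide BNP, and to *Mybpc2* (0.84). *Cyr61* was closest to *Plk2* (0.89) and *Plk3* (0.83), and *Amotl1* to *Hip1* (0.95) and *Ptpn14* (0.94), itself one of the further YAP targets above. *Amotl2* was closest to *Tgfb2* (0.79), also of that list, and to *Rbm48* (0.75). *Ctgf* was closest to *Synpo2l* (0.75) and *2310022B05Rik* (0.74), and *Dab2* to *Htra1* (0.71) and *Mcm10* (0.70). *Axl* was closest to *Pink1* (0.88) and *Adgrg1* (0.88), *Marcks* to *H2afv* (0.90) and *Sub1* (0.87), and *Fscn1* to *1500009L16Rik* (0.87) and *Sfxn1* (0.86). Partners were picked by the highest r, so these values are no test of a link. Spearman's rank correlation was lower for *Ankrd1* with *Mybpc2* (0.56), *Amotl2* with *Tgfb2* (0.64) and *Axl* with *Adgrg1* (0.67). It was not lower for *Dab2* with *Htra1* (0.74).

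**Figure D4:**
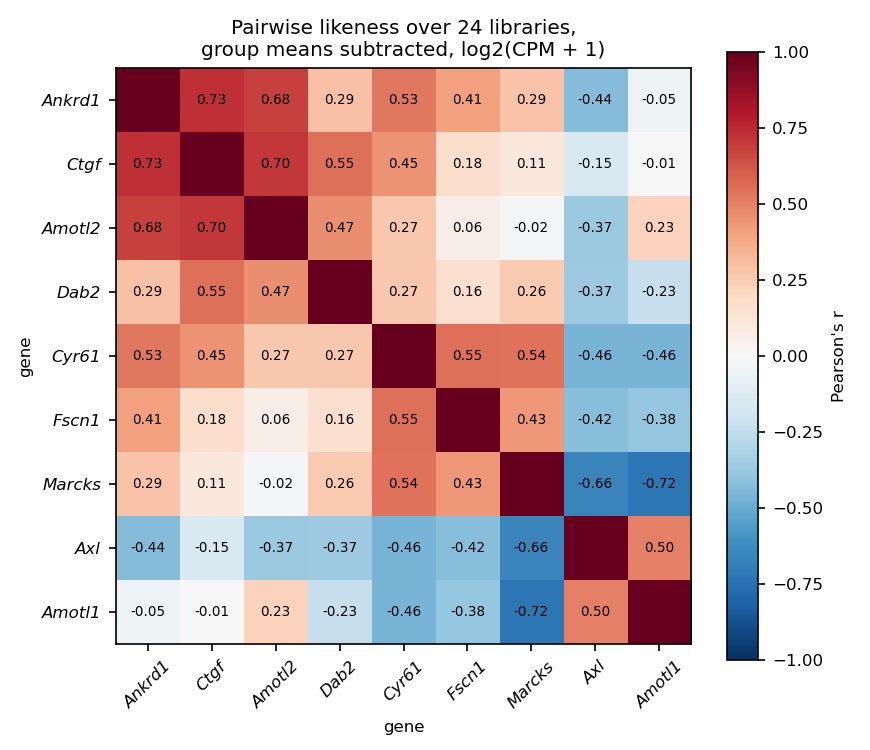
Pearson's r between each pair of the 9 genes (both axes) over 24 libraries, on log2(CPM + 1) after the group means were subtracted. *Ankrd1*, *Ctgf* and *Amotl2* form the block of highest values, 0.68 to 0.73, and *Marcks* is at -0.72 with *Amotl1*.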

How the data were processed

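RNA from ventricles at postnatal day 7.5 was sequenced in strand-specific poly(A) libraries. The authors used Cutadapt for trimming, HISAT2 for alignment to GRCm38, StringTie for counting and edgeR for CPM, as their methods and processing notes state. The deposited values are a normalized signal, CPM whose column totals differ between libraries, taken as CPM on scaled library sizes. All values were whole multiples of 1 read (tolerance 0.01 reads), which gave recovered read counts. Here log2(CPM + 1) was fitted with limma 3.58.1 in R 4.3.3, over genes above 1 CPM in at least 4 of 8 uninjected or 8 of 16 injected libraries, 15598 and 14597 genes. P-values were adjusted over all of them by the Benjamini-Hochberg method and called under 0.05. Fold changes are on the log2(CPM + 1) scale, which understates those of low genes. The study's methods name Fisher's exact test, which needs counts. The 16 injected libraries shared 1 model. The simulated data used to check the fit gave every gene and group the same dispersion, so unequal spread between groups was not tested.

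The genes and lists were chosen with earlier results of these data known. The text names the 9 genes, *Xirp2*, *Yap1*, at most 3 called genes of a list in a comparison, and the 2 genes most like each of the 9. *Ddx3y* was added after its values were seen. Symbols come from GENCODE M21 and promoters from RefSeq. The alternatives were another pseudocount, filters, trend and scaling, count models on those reads (edgeR 4.0.16, DESeq2 1.42.0), a replicate block, a *Ddx3y* covariate, only the groups compared, and leaving out each library. With 4 libraries a group, the intervals of the differences rest on the spread between libraries.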

Additional observations from a re-analysis of the deposited data

Results flagged for a closer look

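Of 54 sets of 4 values (9 genes in 6 groups), 2 held a library that stood apart by its gap to the nearest other, where chance alone sets apart about 2.7. *Ankrd1* in WT/GFP replicate 3 was at 630.3 CPM, with the other WT/GFP libraries between 546.3 and 554.8 CPM. *Dab2* in WT/YAP replicate 2 was at 43.8 CPM, with the others between 28.1 and 30.2 CPM.

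The effect of the YAP vector differed between genotypes, by the interaction test in limma, for *Axl* (0.73 on the log2 scale, adjusted p = 0.0058) and *Dab2* (1.00, adjusted p = 0.013). For both genes all 4 KO/YAP libraries lay above all 4 KO/GFP libraries. The interaction uses the same KO/GFP libraries as the comparisons above, so a low level in KO/GFP enters it too.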

How the results depend on the processing

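The number of the 9 genes called held within 1.5 times in the 7 comparisons under a pseudocount of 0.1, no filter, a mean of at least 5 CPM, no trend, median-ratio scaling and edgeR. DESeq2 called 3 genes in uninjected hearts (*Dab2*, *Fscn1*, *Marcks*, beside 12.5% of all genes), 5 in KO/YAP against KO/GFP (*Amotl1* and *Cyr61* added, beside 17.9% of all genes) and 1 in KO/YAP against WT/GFP (*Ctgf*). With the *Ddx3y* covariate 4 were called in uninjected hearts, and *Cyr61* was also called in KO/YAP against KO/GFP (0.75, adjusted p = 0.048). That covariate also turned 5 uncalled values near 0, *Ctgf* in uninjected hearts (-0.21), *Cyr61* (-0.0505), *Fscn1* (-0.075) and *Amotl2* (-0.0013) in KO/YAP against WT/YAP, and the interaction of *Cyr61* (-0.0054). The cause was not tested. Replicate numbers did not pair the libraries, since correlations of same-numbered libraries ranged from -0.19 to 0.098 in 4 uninjected pairs and from -0.17 to 0.14 in 24 injected pairs. The study used littermates as controls. This check does not cover litters, and the tests do not use them. With the replicate block, *Cyr61* was also called in KO/YAP against KO/GFP (0.89, adjusted p = 0.045) and no other call among the 9 genes changed.

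With each library left out in turn, the number called ranged from 1 to 4 in uninjected hearts, from 3 to 6 in KO/GFP against WT/GFP and from 2 to 6 in KO/YAP against KO/GFP. Log2 fold changes of uncalled genes that crossed 0 ranged as follows. In uninjected hearts *Ctgf* ranged from -0.11 to 0.37 and *Cyr61* from -0.365 to 0.077. In KO/GFP against WT/GFP *Ankrd1* ranged from -0.0732 to 0.0159 and *Cyr61* from -0.28 to 0.11. In KO/YAP against KO/GFP *Ctgf* ranged from -0.10 to 0.37. In KO/YAP against WT/GFP *Amotl1* ranged from -0.0139 to 0.113, *Dab2* from -0.11 to 0.072 and *Fscn1* from -0.0462 to 0.25. In WT/YAP against WT/GFP *Fscn1* ranged from -0.12 to 0.27. In KO/YAP against WT/YAP *Cyr61* ranged from -0.14 to 0.34, *Fscn1* from -0.12 to 0.15 and *Amotl2* from -0.0752 to 0.127. The interaction of *Ankrd1* ranged from -0.455 to 0.0167 and that of *Cyr61* from -0.0653 to 0.441. Over all tested genes, the number called moved by over 1.5 times from 1044 in uninjected hearts (1955 by DESeq2, 1927 with the *Ddx3y* covariate, 659 at a mean of at least 5 CPM, 316 to 2031 with a library left out, 2.47% of genes in place of 6.69% with the replicate block) and from 1104 for the interaction (707 with the block, 625 to 1467 with a library left out). With a library left out it ranged from 1258 to 2749 in KO/GFP against WT/GFP, from 0 to 4 in KO/YAP against WT/GFP, from 0 to 1 in WT/YAP against WT/GFP and from 0 to 8 in KO/YAP against WT/YAP. With only the groups compared the number moved from 1993 to 930 in KO/GFP against WT/GFP, from 2156 to 1208 in KO/YAP against KO/GFP and from 6 to 15 in KO/YAP against WT/YAP. DESeq2 called 24 genes in place of 3 in KO/YAP against WT/GFP, 11 in place of 0 in WT/YAP against WT/GFP and 71 in place of 6 in KO/YAP against WT/YAP. With 4 libraries a group, spread was wide for *Ankrd1* in uninjected KO and KO/YAP hearts, *Cyr61* in KO/YAP and *Fscn1* in KO/GFP. Its part in the missing calls was not tested.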
